A study of Mus musculus with 2 samples.

Results

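The miR-17-92 and miR-106b-25 clusters are groups of microRNA hairpins that are each transcribed as a single precursor. Their 9 genes were followed here in the heart of the young mouse, and they are Mir17, Mir18, Mir19a, Mir20a, Mir19b-1 and Mir92-1 in miR-17-92 and Mir106b, Mir93 and Mir25 in miR-106b-25. They were chosen by their GENCODE M21 gene names, with no use of measured values, from the 2202 microRNA genes counted, and all 9 were found. Short RNA was sequenced from heart tissue of 2 males of B6CASTF1/J, the hybrid offspring of C57BL/6J and the wild-derived CAST strain, at 10 days of age. The mice carried no treatment or engineered allele that the labels mention, and each gave 1 library of total RNA selected for short fragments. Both libraries form 1 group, so the design implies a description of levels and a comparison of replicate 1 with replicate 2, and no contrast between conditions. The labels name a separate tissue sample for each library, beside a common donor record, and the libraries were taken as separate animals.

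MicroRNAs of this kind load into Argonaute and pair with messages through the seed, bases 2 to 8 of the mature strand. The miR-17-92 cluster is known as a target of Myc and E2F and as a brake on cell cycle inhibitors and pro-apoptotic genes such as Cdkn1a and Bcl2l11. In the mouse, loss of the cluster is lethal around birth with defects of lung and heart, and its forced expression extends cardiomyocyte division. The miR-106b-25 cluster lies inside Mcm7, which encodes a subunit of the replicative helicase and is itself a cell cycle gene. Cardiomyocytes of the mouse leave the cell cycle in the days after birth.

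Per the GENCODE M21 annotation of mm10, miR-17-92 spans 836 bases of the plus strand of chromosome 14 (115043671 to 115044506). All 6 of its hairpins lie in exon 2 of the long non-coding RNA Mir17hg, separated by gaps of 35 to 96 bases. The miR-106b-25 cluster spans 498 bases of the minus strand of chromosome 5 (138165321 to 138165818). Its 3 hairpins lie in intron 13 of Mcm7 on the strand of the host, 126 bases apart between Mir106b and Mir93 and 118 bases apart between Mir93 and Mir25. The exon and intron numbers are those of a single annotated transcript of each host, and other transcripts were not examined. No member had a read on the opposite strand in either library, and the count on both strands equalled the count on the gene strand for each of the 9 genes.

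The mature sequences are shown because 4 seeds divide the 9 genes into the families by which targets are recognised. They come from RefSeq (GRCm38.p6, the assembly of mm10), and capitals mark the seed. In 5 genes (Mir17, Mir18, Mir20a, Mir106b and Mir93) the named mature strand comes from the 5′ arm of the hairpin, and in the other 4 from the 3′ arm. The seed AAAGUGC is shared by 4 members and pairs with GCACUUU in a message:
miR-17-5p: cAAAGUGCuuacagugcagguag
miR-20a-5p: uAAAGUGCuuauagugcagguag
miR-93-5p: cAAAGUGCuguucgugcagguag
miR-106b-5p: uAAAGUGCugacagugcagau
The product of Mir18 has a seed of its own, AAGGUGC, which pairs with GCACCUU:
miR-18a-5p: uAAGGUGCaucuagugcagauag
The miR-19 products share GUGCAAA, which pairs with UUUGCAC:
miR-19a-3p: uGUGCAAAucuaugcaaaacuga
miR-19b-3p: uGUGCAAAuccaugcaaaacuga
The products of Mir92-1 and Mir25 share AUUGCAC, which pairs with GUGCAAU:
miR-92a-3p: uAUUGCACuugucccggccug
miR-25-3p: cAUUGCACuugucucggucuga

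Counted from 1 at the 5′ end, with the base of miR-17-5p first, miR-20a-5p differs from miR-17-5p by C1U and C12U, and miR-93-5p differs by U10G, A11U, C12U and A13C. Over the 21 bases of miR-106b-5p the differences from miR-17-5p are C1U, U10G and G20A. None of these lies in the seed. Between the miR-19 products the 1 difference is C11U, with the base of miR-19b-3p first. The mature miR-92a-3p and miR-19b-3p are each encoded by 2 counted genes, the member and a copy on chromosome X. The other 7 mature sequences occur in no other of the 2202 counted hairpins. The nearest other hairpin to miR-17-5p (Mir106a) holds it with 1 mismatch, that to miR-19a-3p (both miR-19b genes) also with 1, and that to miR-106b-5p, miR-93-5p or miR-25-3p with 3.

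Reads assigned to a microRNA gene on its own strand numbered 3748432 in replicate 1 and 6305782 in replicate 2. Levels are given as CPM, counts scaled to 1000000 assigned reads, and the limit that a count of 0 allows (3 counts) equals 0.8003 CPM in replicate 1, against 0.476 CPM in replicate 2. Multimapping reads, which are in no gene count, made up 36.8% of the reads of replicate 1 and 48.1% of those of replicate 2. A gene is called detected where each library gave it 10 counts or more (340 of 2202). Of the cell type markers, the 3 myosin-hosted genes of cardiomyocytes (Mir208a, Mir208b and Mir499) were all detected and summed to 8268 and 12348 CPM. The 6 neuronal genes summed to 2 counts in each library. The hepatocyte gene Mir122 was detected, at 57.9 CPM in replicate 1, against 77.7 CPM in replicate 2. Intervals are exact Clopper-Pearson 95% intervals and cover counting error only, and SDs are over the 2 libraries (n = 2). In bulk tissue, fewer cells of a type and less RNA per cell cannot be told apart.

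Both clusters were expressed in each heart, and 7 of the 9 members were detected. The exceptions were Mir19a and Mir19b-1. Together the 9 genes held 53336 counts in replicate 1, or 1.42% of assigned reads (interval 1.41% to 1.43%), and 102444 counts in replicate 2, or 1.62% (1.61% to 1.63%). As a share of all sequenced reads, unassigned ones included, they held 0.604% in replicate 1 and 0.601% in replicate 2. The miR-17-92 genes summed to 7889 CPM in replicate 1, against 8839.5 CPM in replicate 2, and the miR-106b-25 genes to 6339.7 and 7407 CPM. The hearts were thus closer to each other in the share of all reads than in the share of assigned reads.

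**Figure D1:**
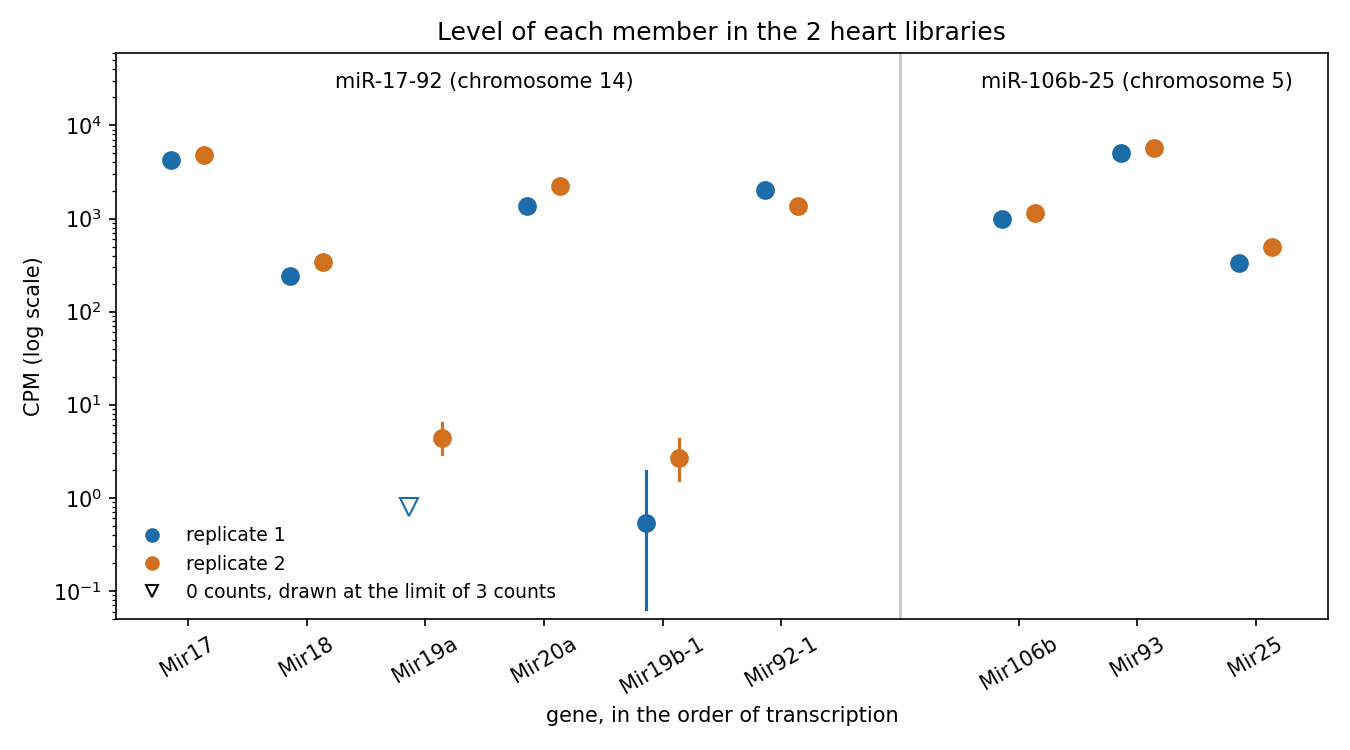
Level of each member in CPM on a log scale, in the order of transcription within each cluster, with replicate 1 in blue and replicate 2 in orange. Bars are exact 95% counting intervals, often smaller than the point, and an open triangle marks a count of 0 drawn at the limit of 3 counts. Mir93 and Mir17 lead, and Mir19a and Mir19b-1 lie below 5 CPM in each library.

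Mir93 was the most abundant member (ENSMUSG00000065527.1). It had 18797 counts or 5015 CPM in replicate 1, against 36415 counts or 5775 CPM in replicate 2, a mean of 5395 ± 538 CPM (SD), and ranked 31 of 2202 in each library. Its product is known to repress Cdkn1a. Mir17 (ENSMUSG00000065508.1), which gives the founding microRNA of the family, followed with 4274 CPM in replicate 1, against 4861 CPM in replicate 2 (mean 4568 ± 415 CPM, SD). The ranges of Mir93 and Mir17 over the libraries did not overlap, and Mir93 was the higher of them in both.

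Mir20a (ENSMUSG00000065442.1), whose product targets E2F factors together with that of Mir17, had 1349 CPM in replicate 1, against 2261 CPM in replicate 2. Mir92-1 (ENSMUSG00000076062.1), whose product restrains vessel growth by endothelial cells, had 2022 CPM in replicate 1, against 1372 CPM in replicate 2. The ranges of this pair overlapped and their order was not the same in the hearts, with Mir92-1 above Mir20a in replicate 1 and below it in replicate 2. Mir106b (ENSMUSG00000065514.1), another repressor of Cdkn1a, came next with 993 and 1139 CPM, below the range of either.

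Mir25 (ENSMUSG00000065394.1), whose product is known in the mouse heart as a repressor of the calcium pump Atp2a2, had 332 CPM in replicate 1, against 493 CPM in replicate 2. Mir18 (ENSMUSG00000065403.1), whose product targets the matrix genes Ccn2 and Thbs1, had 243 and 338 CPM. The ranges of Mir25 and Mir18 overlapped, although Mir25 was the higher in each library. Both lay below Mir106b without overlap.

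The miR-19 genes were at the limit of detection. Mir19a (ENSMUSG00000065416.1) had 0 counts in replicate 1, which allows up to 0.8003 CPM, and 28 counts or 4.44 CPM in replicate 2. Mir19b-1 (ENSMUSG00000076256.1) had 2 counts or 0.534 CPM in replicate 1, against 17 counts or 2.70 CPM in replicate 2. Mir20a, whose hairpin lies between these genes in the same exon, exceeded both by far in each library. Mir17 had 1095 times the count of Mir19a in replicate 2 (interval 757 to 1648).

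The low counts of the miR-19 genes stand beside 2 features of their sequence. The mature miR-19b-3p is identical in Mir19b-1 and Mir19b-2, and miR-19a-3p is within 1 mismatch of both. Multimapping reads were outside the counts, and their part in these low values was not tested.

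Identity between loci also touches Mir92-1. The hairpins of Mir92-1 and of its copy Mir92-2 are shown to place the identical part, with the mature strand in capitals (RefSeq, GRCm38.p6, Mir92-1 at chr14:115044427-115044506 on the plus strand and Mir92-2 at chrX:52741838-52741928 on the minus strand):
Mir92-1: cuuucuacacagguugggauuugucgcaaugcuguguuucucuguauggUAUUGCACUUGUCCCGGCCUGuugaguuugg
Mir92-2: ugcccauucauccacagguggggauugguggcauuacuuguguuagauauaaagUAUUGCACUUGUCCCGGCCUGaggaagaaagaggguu
The longest stretch common to these hairpins is 22 bases, the mature strand and 1 base before it, and it ends with the last base of the mature strand. For Mir19b-1 and Mir19b-2 the common stretch is 25 bases and likewise ends with the mature strand. Which reads gave the 7581 and 8654 counts of Mir92-1 was not tested, and its level is uncertain for that reason.

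The counts are per gene and do not separate the arms of a hairpin, so the shares below are of genes and not of seed-bearing reads. Grouped by the seed of the named mature strand, the AAAGUGC family held most of the counts of the 9 genes. Its 4 members, Mir17, Mir20a, Mir106b and Mir93, took 81.7% of them in replicate 1 (interval 81.4% to 82.1%) and 86.4% in replicate 2 (86.2% to 86.6%), a summed level of 11631 and 14036 CPM. The AUUGCAC pair, Mir92-1 and Mir25, took 16.5% in replicate 1 and 11.5% in replicate 2. Mir18 alone took 1.71% and 2.08%. The miR-19 pair took 0.00375% in replicate 1 and 0.0439% in replicate 2. The uncertain count of Mir92-1 is part of the total behind each of these shares.

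Within the whole table, the members' share of the counts of all genes with their seeds depended on the seed. A search of the RefSeq mature sequences found 7 counted genes with the AAAGUGC seed, and the 4 members held 99.6% of their counts in replicate 1 and 99.7% in replicate 2. The rest came from Mir106a and Mir20b on chromosome X, and Mir6383 had 0 counts in both libraries. Mir18 held 99.7% in each library of the counts of genes with its seed, which it shares with Mir18b. Of the 3 genes with the GUGCAAA seed, Mir19a and Mir19b-1 held both of the 2 counts in replicate 1 and 84.9% of the 53 counts in replicate 2 (interval 72.4% to 93.3%), the rest being those of Mir19b-2. For AUUGCAC, also with 7 counted genes, Mir92-1 and Mir25 held 93.8% (interval 93.3% to 94.3%) in replicate 1 and 95.3% (94.9% to 95.7%) in replicate 2. Of the others with this seed, Mir32 had 76.8 CPM in replicate 1, against 51.5 CPM in replicate 2, Mir92b had 17.3 and 3.96 CPM, and Mir367, from a cluster of pluripotent cells, had 0 counts in both.

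The paralogous cluster on chromosome X, miR-106a-363, lay far below miR-17-92. Its 6 genes summed to 394 counts or 105 CPM in replicate 1, against 543 counts or 86.1 CPM in replicate 2. The miR-17-92 counts were 75.1 times those of the paralogous cluster in replicate 1 (interval 68.0 to 83.1) and 103 times in replicate 2 (94.3 to 112). Mir17 had 156 times the count of Mir106a in replicate 1 (128 to 191) and 178 times in replicate 2 (153 to 208), although miR-106a-5p differs from miR-17-5p only by U10A. Mir18 exceeded Mir18b 303-fold in replicate 1 and 304-fold in replicate 2, but Mir18b had just 3 and 7 counts, and the intervals ran from 103 to 1474 and from 147 to 757.

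Mir20a exceeded Mir20b 85.7-fold in replicate 1 (66.3 to 113) and 115-fold in replicate 2 (96.4 to 138). Mir92-1 exceeded Mir92-2 by the smallest ratio of these detected pairs, 36.3-fold in replicate 1 (31.6 to 41.8) and 48.9-fold in replicate 2 (42.1 to 57.1). The mature strand of this last pair is identical, and the ratio describes assigned reads only. Mir19b-2 had 0 counts in replicate 1 and 8 in replicate 2, so no order to Mir19b-1 could be read from these low counts. Mir363, which has no counterpart in miR-17-92 and shares its seed with Mir25, had 5.34 CPM in replicate 1, against 8.72 CPM in replicate 2.

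**Figure D2:**
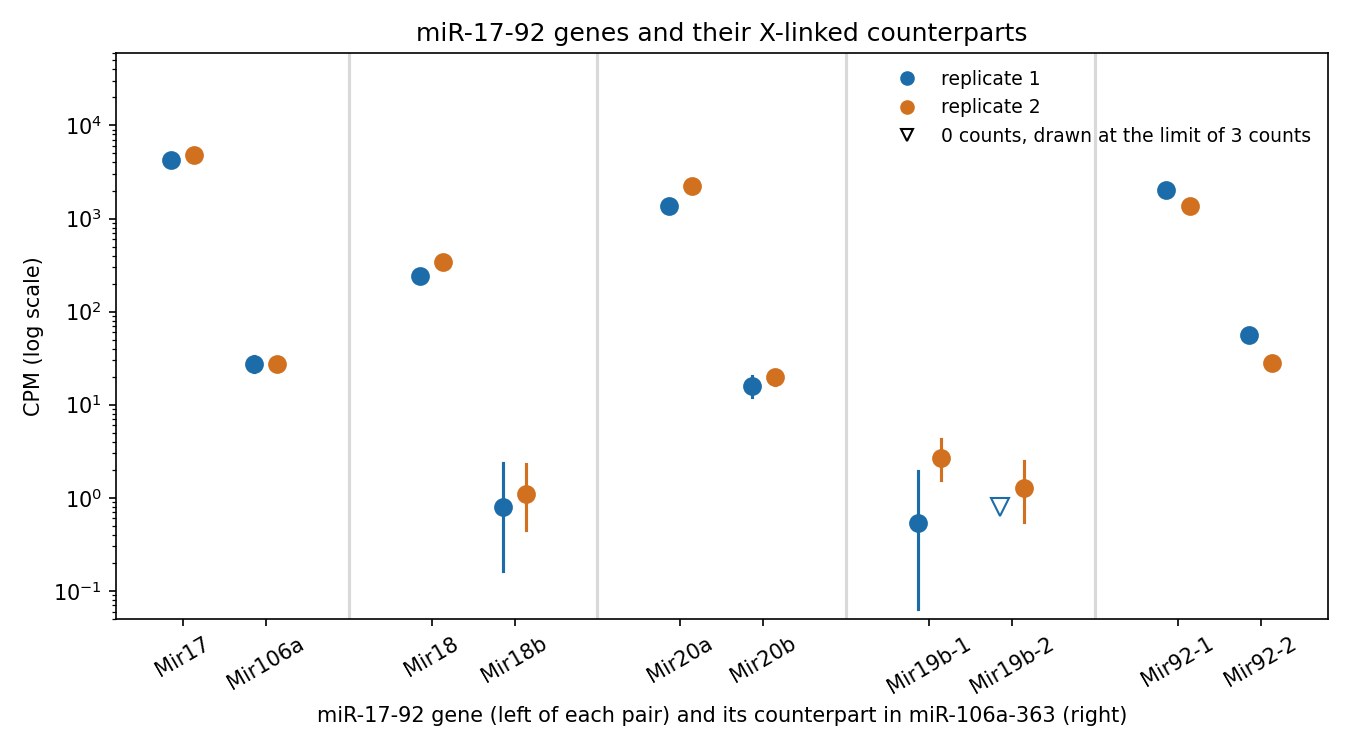
CPM on a log scale of 5 miR-17-92 genes, each to the left of its counterpart in the X-linked miR-106a-363 cluster, with replicate 1 in blue, replicate 2 in orange and exact 95% counting intervals as bars. An open triangle is a count of 0 drawn at the limit of 3 counts. The 4 detected miR-17-92 genes lie above their counterparts in both libraries, and Mir19b-1 and Mir19b-2 do not separate.

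The proportions between some members differed little between the hearts, and those between others differed beyond counting error. Mir93 had 5.05 times the count of Mir106b in replicate 1 (interval 4.87 to 5.23) and 5.07 times in replicate 2 (4.94 to 5.20). Across the clusters, Mir93 had 1.17 times the count of Mir17 in replicate 1 (1.15 to 1.20) and 1.19 times in replicate 2 (1.17 to 1.21). Both ratios thus differed between the hearts by less than their counting error. These ratios are free of the scaling of the libraries.

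The ratios of Mir25 to its neighbours in the same intron differed between the hearts beyond counting error. Mir106b had 2.99 times the count of Mir25 in replicate 1 (interval 2.81 to 3.19) and 2.31 times in replicate 2 (2.22 to 2.41), and for Mir93 the ratios to Mir25 were 15.1 and 11.7. Of the miR-106b-25 counts, Mir93 took 79.1% in replicate 1 (78.6% to 79.6%) and 78.0% in replicate 2 (77.6% to 78.3%), Mir106b took 15.7% (15.2% to 16.1%) and 15.4% (15.1% to 15.7%), and Mir25 took 5.23% in replicate 1 (4.96% to 5.53%) and 6.65% in replicate 2 (6.43% to 6.88%). The intervals of the libraries did not overlap for Mir25 and Mir93 and overlapped for Mir106b.

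In miR-17-92, Mir17 took 54.2% of the counts in replicate 1 (interval 53.6% to 54.7%) and 55.0% in replicate 2 (54.6% to 55.4%). Mir20a took 17.1% in replicate 1 and 25.6% in replicate 2, and Mir92-1 took 25.6% and 15.5%. Mir18 took 3.08% and 3.82%. In percentage points, Mir92-1 and Mir20a had the largest shifts of share within either cluster. Mir20a had 0.667 times the count of Mir92-1 in replicate 1 (0.644 to 0.691) and 1.65 times in replicate 2 (1.60 to 1.69). Each share of miR-17-92 has the uncertain count of Mir92-1 in its total. In a ratio free of Mir92-1, Mir17 had 3.17 times the count of Mir20a in replicate 1 (3.07 to 3.27). In replicate 2 it had 2.15 times that count (2.11 to 2.19).

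**Figure D3:**
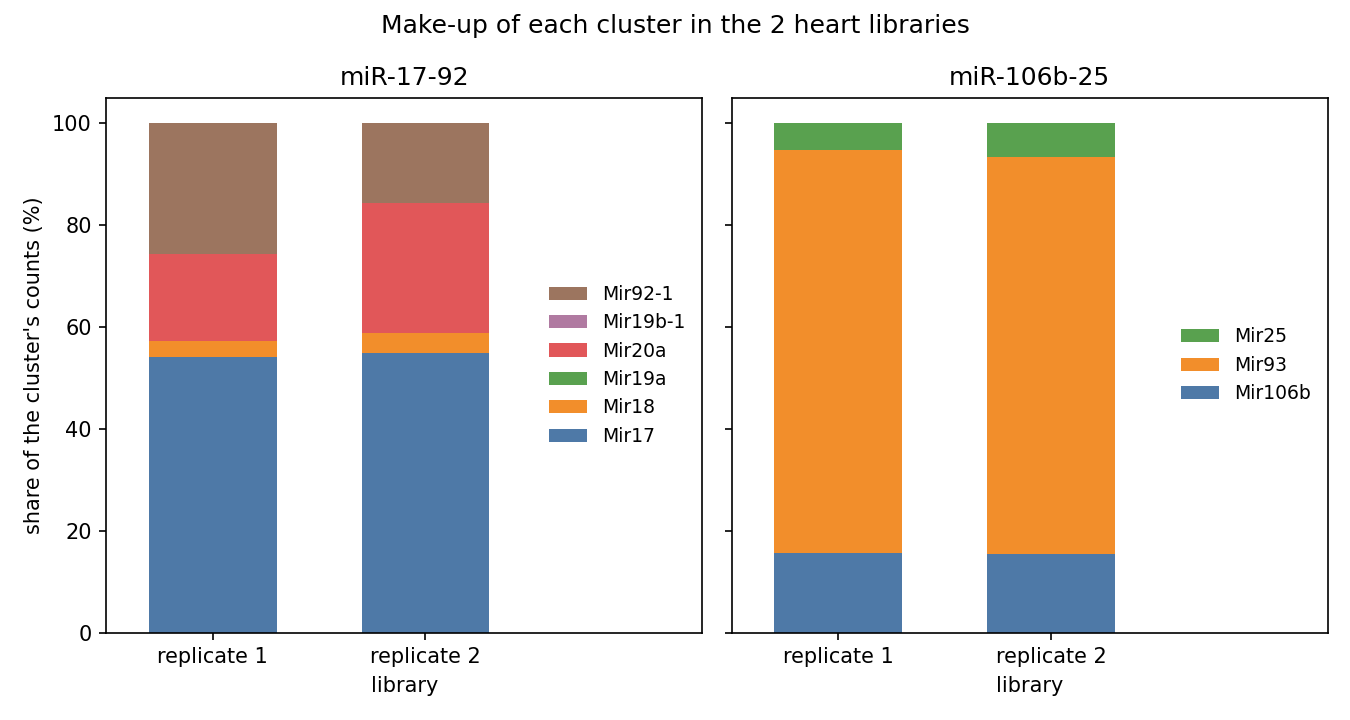
Share of the counts of each cluster taken by each of its genes, in percent, with a bar for replicate 1 left of the bar for replicate 2. Mir17 and Mir93 hold similar shares in both hearts, whereas Mir20a and Mir92-1 exchange places, and the shares of Mir19a and Mir19b-1 are too small to see.

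Summed over genes, miR-17-92 had 1.24 times the counts of miR-106b-25 in replicate 1 (interval 1.22 to 1.27) and 1.19 times in replicate 2 (1.18 to 1.21), a log2 ratio of 0.29 ± 0.04 (SD, n = 2). With Mir92-1 and Mir19b-1 left out, because their mature strands occur in another gene, the log2 ratio was -0.11 in replicate 1 and 0.01 in replicate 2 (mean -0.05 ± 0.09, SD, n = 2), so the sums then had no common order in the hearts.

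Between the hearts, 6 of the 7 detected members were lower and Mir92-1 was higher in replicate 1 than in replicate 2, after TMM scaling of the assigned reads. All 7 were called by an exact two-sided binomial test with Benjamini-Hochberg adjustment over the 340 detected genes, the largest adjusted p of the 7 being 4.7e-28 for Mir18. The background is high: 72.1% of detected genes were called, 37.9% as higher and 34.1% as lower in replicate 1. The test sets 2 libraries against counting error and says nothing of a condition. None of the 7 detected members reached a 2-fold difference, against 19.7% of detected genes. With all sequenced reads as the scaling, Mir17, Mir93 and Mir106b were not called, and Mir17 changed side.

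The size of the difference varied among members. Mir20a had the largest, a log2 ratio of replicate 1 over replicate 2 of -0.89 (interval -0.93 to -0.84), followed by Mir25 at -0.71 (-0.81 to -0.62) and Mir18 at -0.62 (-0.73 to -0.51). Mir93 (-0.35), Mir106b (-0.34) and Mir17 (-0.33) lay within 0.02 of each other. Mir92-1 ran the other way at 0.42 (0.37 to 0.46). Its mature strand is identical in Mir92-2, and multimapping reads, outside the counts, were 36.8% of replicate 1 and 48.1% of replicate 2. Their part in this difference was not tested. The median of the 7 log2 ratios was -0.35 and their median absolute value 0.42, beside 0.05 and 0.54 over all detected genes.

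Mir19a and Mir19b-1 had too few counts to be tested with the other members. Mir19a, with 0 and 28 counts, was at least 4.66-fold lower in replicate 1 by the exact interval of its ratio with TMM scaling. Mir19b-1, with 2 and 17 counts, had a log2 ratio of -2.20 with an interval of -5.64 to -0.40.

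**Figure D4:**
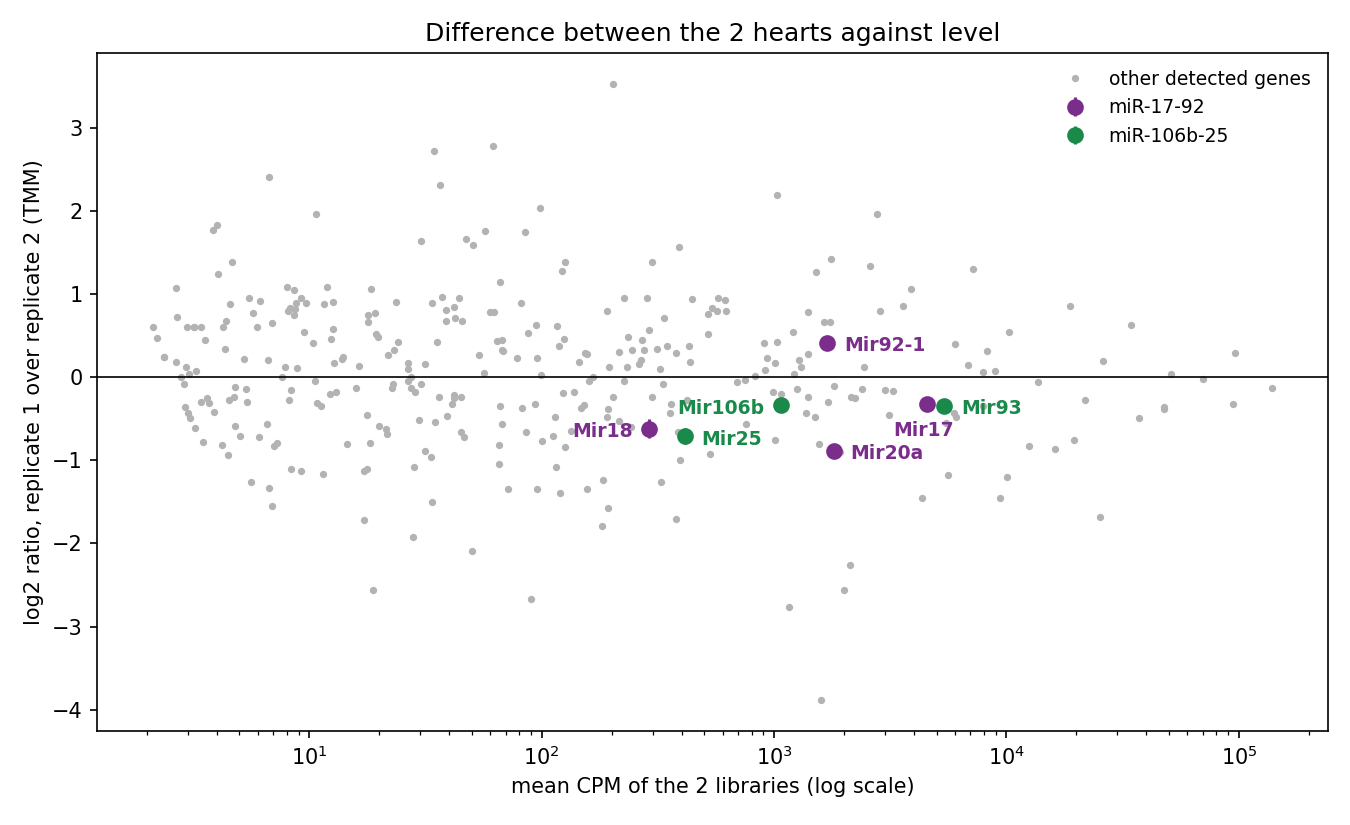
Log2 ratio of replicate 1 over replicate 2 after TMM scaling against mean CPM on a log scale, for 340 detected genes (grey) with the members of miR-17-92 in purple and of miR-106b-25 in green. Bars are exact 95% counting intervals and are mostly hidden by the points. The 7 detected members lie between -0.89 and 0.42, with Mir92-1 the one above 0 (with all sequenced reads as the scaling Mir17 is at 0.01).

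The scaling set where 0 lay for these ratios. Against TMM, total assigned counts moved the median of all detected genes by 0.14 and all sequenced reads by 0.34 on the log2 scale, and the scaling by all reads was added after seeing the data. With all sequenced reads, Mir17 turned to 0.01, Mir93 to -0.01 and Mir106b to 0.00, while Mir20a (-0.55), Mir25 (-0.37), Mir18 (-0.28) and Mir92-1 (0.76) kept their sides. The calls over all genes were then 174 higher and 69 lower in replicate 1, against 129 and 116 with TMM. Relative to the median of all detected genes, which no scaling alters, Mir17 was at -0.38, Mir106b at -0.39, Mir93 at -0.40, Mir20a at -0.94 and Mir92-1 at 0.37.

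**Figure D5:**
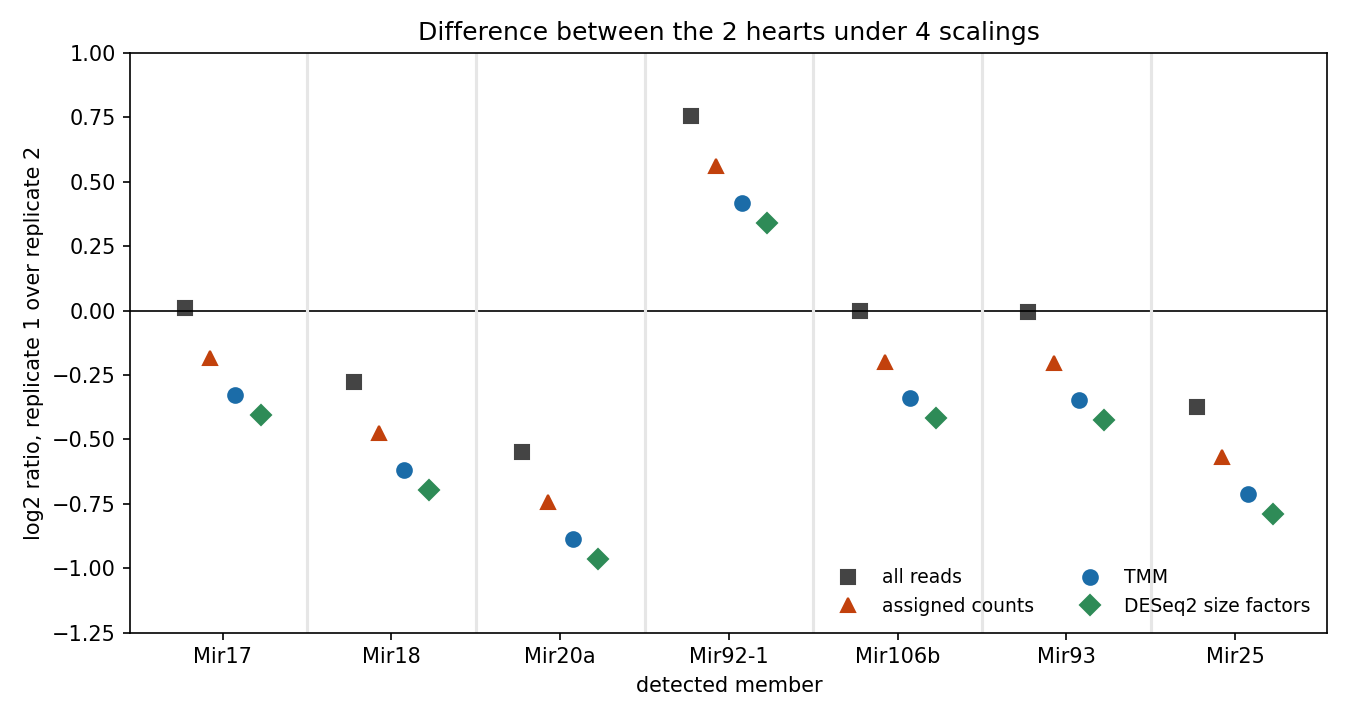
Log2 ratio of replicate 1 over replicate 2 for each detected member under 4 scalings of the libraries: all sequenced reads, assigned counts, TMM and DESeq2 size factors. Mir17, Mir106b and Mir93 sit at 0 with all sequenced reads and below 0 with the other scalings, whereas Mir18, Mir20a and Mir25 stay below 0 and Mir92-1 stays above it.

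Markers of the cell types of the heart also differed between the libraries. On the same log2 scale, the summed counts of the cardiomyocyte markers differed by -0.72, those of the smooth muscle markers by -0.39, those of the endothelial markers by -0.32, those of the leukocyte markers by -0.10 and those of the red cell markers by 0.04, beside -0.33 for the 9 members. With all sequenced reads as the scaling each of these sums is higher by 0.34, which puts the endothelial, leukocyte and members' sums above 0. The genes within a list did not move alike. Within the cardiomyocyte list, Mir208a was at 1.34, Mir499 at -1.18 and Mir208b at -2.26. Within the leukocyte list, Mir155, which holds most of its counts, was at 0.12, while Mir142 was at -1.24 and Mir223 at -2.09. In the red cell list, Mir451a was at 0.07 and Mir144 at -0.66. In the smooth muscle list, Mir143 was at -0.38 and Mir145a at -0.81. The endothelial sum is in effect Mir126a alone, because Mir126b had 3 counts in replicate 1 and 1 in replicate 2. The part of cell composition in the differences of the members was not tested.

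Other genes with the seed of Mir92-1 differed in both directions. Mir92-2 had 55.8 CPM in replicate 1, against 28.1 CPM in replicate 2 (log2 ratio 0.85, interval 0.55 to 1.14), and Mir92b (1.97, 1.30 to 2.71) and Mir32 (0.43, 0.20 to 0.67) were also called as higher in replicate 1. Mir363 was called as lower (-0.83, -1.67 to -0.09), on the side of Mir25, but was not called with total counts (-0.69) or all sequenced reads (-0.49). The X-linked genes with the seed of Mir17 were not called, at -0.13 (-0.50 to 0.23) for Mir106a, which turned to 0.01 with total counts and 0.21 with all sequenced reads, and at -0.46 (-0.94 to -0.01) for Mir20b, which was called as lower with DESeq2 size factors (-0.53).

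Related families of cell cycle control were called about as often as the 72.1% of all detected genes. In the miR-15/16 family, whose products restrain cyclins, 5 of 6 genes were called, 1 as higher and 4 as lower in replicate 1 (3 and 3 with all sequenced reads as the scaling), with log2 ratios from -2.56 for Mir195a to 0.78 for Mir15b. Mir195a had the highest mean level of the family but led it in replicate 2 only, with 634 CPM in replicate 1, against 3377 CPM in replicate 2, and Mir15b led in replicate 1. In the cluster of Mir322 and Mir503, 5 of 7 were called, 2 as higher and 3 as lower (5 and 1 with all sequenced reads), from -0.80 to 1.31, and its most abundant gene was Mir322 at -0.76. Their median absolute log2 ratios were 0.84 and 0.76, beside 0.42 for the detected members of the clusters described here. No test of these differences between lists was made.

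The genes nearest to the leading members in level over both libraries were the same for Mir93 and Mir17. By Euclidean distance in log2(CPM + 1) over the 2 libraries, and among 302 detected genes outside the lists, they were Mir28a (4727 CPM in replicate 1, against 6283 CPM in replicate 2), Mir125a (5342 and 6539.7 CPM) and Mirlet7f-2 (5334 and 6745 CPM). Their distances were 0.15, 0.20 and 0.24 from Mir93 and 0.40, 0.54 and 0.57 from Mir17. With 2 libraries, this likeness describes level and little else.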

How the data were processed

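For each library the authors deposited 1 headerless table with 3 columns of raw counts per gene, on mm10 with annotation M21, per the deposited text files. For aligner and counter, names were not given in the sources used here. From the values, the columns hold reads on both strands, on the gene strand (used here) and on the opposite strand. Another 4 entries name no gene and stayed out of totals and tests. Unmapped reads made up 16.0% of replicate 1 and 11.5% of replicate 2, and reads outside genes 4.78% and 3.43%.

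All 2202 identifiers matched GENCODE M21, and RefSeq mature sequences were placed in 1022 of these genes by coordinates (308 of the 340 detected). Libraries were scaled with TMM (edgeR 4.0.16). For each gene, the pair of counts was compared with the scaled library sizes by an exact binomial test (scipy 1.17.1) with Benjamini-Hochberg adjustment at 0.05. Log2 ratios used a prior of 0.5 counts. The binomial test and its adjustment were tried on simulated counts with counting error only and known library sizes. That simulation held no variation between animals and did not cover the TMM scaling. Alternatives were total counts, DESeq2 1.42.0 size factors, all reads, both strands, no filter on low counts, a 2-fold minimum, other denominators and leaving out a library. The calls compare libraries and cover counting error only.

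The members were chosen by gene name, and the lists and tests were chosen with earlier results of these data known. All members and their same-seed and paralogous genes are named, with the top gene of each other list and the 3 genes nearest in level to Mir17 and Mir93. Of 49 list entries, 2 were matched through a synonym.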

Additional observations from a re-analysis of the deposited data

How the results depend on the processing

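The 7 calls between the hearts kept their number and directions with total counts, DESeq2 size factors and reads on both strands. Without a filter on low counts 9 were called, where 34.4% of the 733 genes tested were called, Mir19a and Mir19b-1 being added as lower in replicate 1. With all reads as the scaling, an alternative added after seeing the data, 4 were called, and Mir17 reversed to 0.011 on the log2 scale. By the exact binomial test 0 were called at 2-fold or more, against 7 at any size. The share of the 9 members was 1.52% of assigned reads, 0.603% of all reads, 1.38% with genes of shared mature sequence left out and 2.09% with reads on both strands, where the total of assigned reads is smaller. It was 1.42% to 1.62% with either library left out. The log2 ratio of miR-17-92 over miR-106b-25 was 0.26 to 0.32 with either library left out, and -0.050 without members of shared mature sequence, by construction without Mir92-1 and Mir19b-1. For the seed shares the alternatives run were not informative, since reads on both strands give the same counts. Leaving out a library gives the other library's value. The seed shares were not recomputed without Mir92-1 and Mir19b-1, so how far they depend on the uncertain level of Mir92-1 was not tested. Calls between libraries have no value with 1 library left out. No paired analysis was possible because the libraries form 1 group. Low counts limit what can be read from Mir19a, Mir19b-1 and the X-linked genes, of which Mir18b and Mir19b-2 had under 10 counts in each library.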
